A study of Mus musculus with 12 samples.

Results

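Members of the STAT and IRF families of transcription factors were followed in STHdhQ7 and STHdhQ111 cells before and after an inflammatory challenge. The 9 genes are Stat2, Stat3, Irf1, Irf2, Irf3, Irf5, Irf7, Irf8 and Irf9, taken by name from a table of 29428 genes. All 9 passed the filter on low values (at least 0.5 TPM in at least 3 libraries), which kept 16127 genes. Irf8 passed only through the treated libraries, in which it was high, and any comparison of treated and nontreated cells for it has to be read with that.

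STHdhQ7 and STHdhQ111 are immortalized mouse striatal lines whose huntingtin carries 7 or 111 glutamines. Each line was left untreated (Q7-C, Q111-C) or received 100 ng/mL IFNγ together with 5 μg/mL LPS for 24 h (Q7-T, Q111-T). Poly(A) RNA of 3 libraries per group was sequenced, 12 libraries in all. Each genotype is represented by 1 line, so that genotype and line cannot be told apart. The study calls the libraries of a group biological replicates without saying whether each came from its own culture, and p-values measure only the spread between these libraries.

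IFNγ and LPS reach the nucleus by separate routes. IFNγ activates Janus kinases and STAT dimers, which bind the gamma-activated site (GAS), whereas type I interferon, made after LPS is sensed by Tlr4, assembles Stat2 and Irf9 into ISGF3, the complex that binds the interferon-stimulated response element (ISRE). Irf1 is a primary IFNγ target gene and an activator at ISRE-like sites, and Irf2 competes with it for these sites. Irf3 and Irf7 switch on type I interferon genes, Irf3 from a ready protein pool and Irf7 as an inducible amplifier. Irf5 acts below Toll-like receptors, Irf8 is best known from myeloid cells and is inducible by IFNγ, and Stat3 carries signals of the Il6 family.

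The sequence before each gene start was examined because the responses of the 9 genes to treatment differed. Promoter sequences from RefSeq (GRCm38.p6) were found for 9 of 9 genes, in 12 windows, since Irf1, Irf8 and Irf9 have more than 1 listed start. The 250 bases before each start were searched on both strands for the GAS core TTCNNNGAA, the ISRE core (GAAA and GAAA with any 2 bases between them) and a loose NF-kB pattern (GGG and CC with any 5 bases between them). In the 9 genes none of the GAS and ISRE cores overlapped another motif. The GAS core was found in the windows of Irf1, Irf2 and Irf8 and in 7.02% of all 32851 windows. The ISRE core was found for Stat2 and Irf2 and in 2.98% of all windows. The NF-kB letters were found for all members except Stat3 and in 45.8% of all windows. A match is a description of letters and not evidence of binding, and the absence of a match says only that these letters are not in the window. The windows of the 4 genes with a GAS or ISRE core are shown because they cover the member with the largest response (Irf8), the most abundant treated member (Irf1), an ISGF3 subunit (Stat2) and the gene with both cores (Irf2). Each is written 5′ to 3′ on the gene's strand (plus in all 4), with the GAS and ISRE cores in capitals.

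Irf1, chr11:53769764-53770013: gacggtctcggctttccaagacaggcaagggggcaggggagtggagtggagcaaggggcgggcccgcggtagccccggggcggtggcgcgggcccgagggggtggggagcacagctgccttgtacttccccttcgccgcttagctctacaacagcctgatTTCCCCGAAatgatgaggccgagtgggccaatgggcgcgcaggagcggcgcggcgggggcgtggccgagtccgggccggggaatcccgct
Irf8, chr8:120736108-120736357: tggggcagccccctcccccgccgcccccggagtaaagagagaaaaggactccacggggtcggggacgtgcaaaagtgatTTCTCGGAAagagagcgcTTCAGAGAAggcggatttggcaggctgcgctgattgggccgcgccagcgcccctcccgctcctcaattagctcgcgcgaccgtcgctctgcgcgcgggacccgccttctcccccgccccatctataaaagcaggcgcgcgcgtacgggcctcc
Stat2, chr10:128270248-128270497: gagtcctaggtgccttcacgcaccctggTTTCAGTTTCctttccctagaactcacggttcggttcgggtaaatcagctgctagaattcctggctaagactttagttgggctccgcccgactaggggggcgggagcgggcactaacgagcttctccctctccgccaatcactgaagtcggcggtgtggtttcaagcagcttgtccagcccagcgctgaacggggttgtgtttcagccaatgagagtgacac
Irf2, chr8:46739495-46739731: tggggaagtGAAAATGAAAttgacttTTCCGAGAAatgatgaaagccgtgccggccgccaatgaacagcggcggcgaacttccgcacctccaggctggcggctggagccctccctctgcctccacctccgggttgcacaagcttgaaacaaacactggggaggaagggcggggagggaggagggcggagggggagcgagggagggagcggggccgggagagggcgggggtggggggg

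In the Irf1 window the GAS core lay at positions -90 to -82 from the start, and one of the NF-kB matches, GGGGAATCCC, lay at -13 to -4. The Irf8 window held 2 GAS cores, at -171 to -163 and at -153 to -145. The ISRE core of Stat2 lay at -222 to -213. In Irf2 the ISRE core was at -241 to -232 and the GAS core at -224 to -216, without overlap. The Irf2 window was printed to the edge of the gene in the deposited table.

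Library totals ranged from 57505990 to 96417834 estimated counts. For 11 of 12 libraries the most similar other library belonged to their own group. Q7-T replicate 2 instead lay nearest to Q7-C replicate 1, and values without it are given where the call of a member changed. For the marker, target and upstream genes, values without this library were not examined. The cells are labelled striatal. Of 13 striatal neuron markers, 8 were in the table and 4 passed the filter (Map2, Penk, Ppp1r1b and Tubb3), and the sum of the list was between 15.0 and 86.4 TPM per library. Tubb3, a tubulin of neurons, made up most of the treated sums and rose with treatment by 2.29 ± 0.25 in STHdhQ7 (adjusted p = 1.17e-04) and 2.77 ± 0.25 in STHdhQ111 cells (adjusted p = 1.53e-05). Map2, a microtubule protein of dendrites, fell in STHdhQ7 cells (-1.80 ± 0.34, adjusted p = 0.00868) and gave 0.02 ± 0.33 in STHdhQ111 cells (adjusted p = 0.990), while Penk and Ppp1r1b did not pass in either line. Between the lines, Tubb3 was lower in STHdhQ111 cells before (-2.46 ± 0.25, adjusted p = 2.98e-05) and after treatment (-1.99 ± 0.24, adjusted p = 9.05e-05). Penk was higher in STHdhQ111 cells before treatment (4.88 ± 1.43, adjusted p = 0.0294) and Map2 after it (1.12 ± 0.34, adjusted p = 0.0223). Penk and Ppp1r1b reached at most 5.42 and 1.305 TPM in any library. Of the markers below the filter, Bcl11b, Gad1, Gad2 and Adora2a reached at most 0.0407, 0.432, 0.0210 and 0.41 TPM. Of 8 mesenchymal markers 7 were tested, and their levels moved with the groups. The sum was 4335 to 4920 TPM before and 3350 to 3756 TPM after treatment in STHdhQ7 cells, and 3672 to 3832 and 1504 to 1624 TPM in STHdhQ111 cells. Treatment lowered 3 of 7 in the former (Col1a1, Col1a2 and Col3a1) and 4 of 7 in the latter (these and Pdgfrb), against 1.11% and 2.96% of all genes. In each line 0 rose, against 2.93% and 8.28% of all genes. Between nontreated lines the collagens Col1a1, Col1a2 and Col3a1 were higher in STHdhQ111 cells (by 1.25 to 3.81), as were 7.62% of all genes. The contractile genes Acta2 (-5.59 ± 0.35) and Tagln (-5.44 ± 0.46) were lower there, as were 7.61% of all genes. The same 5 genes were called in the same directions between treated lines, with Vim lower as well (-1.07 ± 0.19). Between treated lines 13.3% of all genes were higher and 11.2% lower. Of 7 astrocyte markers 3 were tested, and the sum was 20.96 to 39.1 TPM before and 15.6 to 41.7 TPM after treatment in STHdhQ7 cells, and 74.0 to 89.2 and 70.0 to 84.3 TPM in STHdhQ111 cells. Most of it was Gja1, a gap junction protein, which gave 1.00 ± 0.18 between nontreated (adjusted p = 0.00197, under 2-fold) and 1.06 ± 0.18 between treated lines (adjusted p = 9.60e-04). Slc1a3, a glutamate transporter, was higher in STHdhQ111 cells by 3.18 ± 0.28 before (adjusted p = 1.08e-05) and 1.22 ± 0.27 after treatment (adjusted p = 0.00420), and treatment lowered it there (-1.75 ± 0.27, adjusted p = 7.67e-04). Aldh1l1, which reached at most 1.61 TPM, was lower in nontreated STHdhQ111 cells (-3.56 ± 1.16, adjusted p = 0.0459) and rose there with treatment (5.13 ± 1.21, adjusted p = 0.0116), and Gfap and Aqp4 reached at most 0.328 and 0.0889 TPM. Of 5 lymphocyte markers, 0 passed the filter. The part of the neuronal, mesenchymal and astrocyte markers in the members' values was not tested. Of the 13 macrophage or microglia markers, 10 were in the table and 2 passed the filter (Cd68 and Tmem119). Ptprc, Spi1, Itgam, Adgre1, P2ry12 and C1qa reached at most 0.243 TPM, Fcer1g 0.260 and Csf1r 0.479 TPM. Csf1r averaged 0.161, 0.128, 0.209 and 0.361 TPM in Q7-C, Q7-T, Q111-C and Q111-T.

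Levels are given as TPM, which accounts for transcript length and thus allows genes to be compared. Among the 9 genes in Q7-C cells, Irf3 was the most abundant (26.1 ± 0.580 TPM, SD, n = 3), followed by Irf1 (15.4 ± 3.74) and Stat3 (11.5 ± 2.89). Irf1 was the most abundant in the other 3 groups, with 43.3 ± 3.86 TPM in Q111-C, 250 ± 107 in Q7-T and 496 ± 96.0 in Q111-T. Irf8 was the least abundant in both nontreated groups, at 0.114 ± 0.0572 TPM in Q7-C and 0.116 ± 0.0664 in Q111-C.

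**Figure D1:**
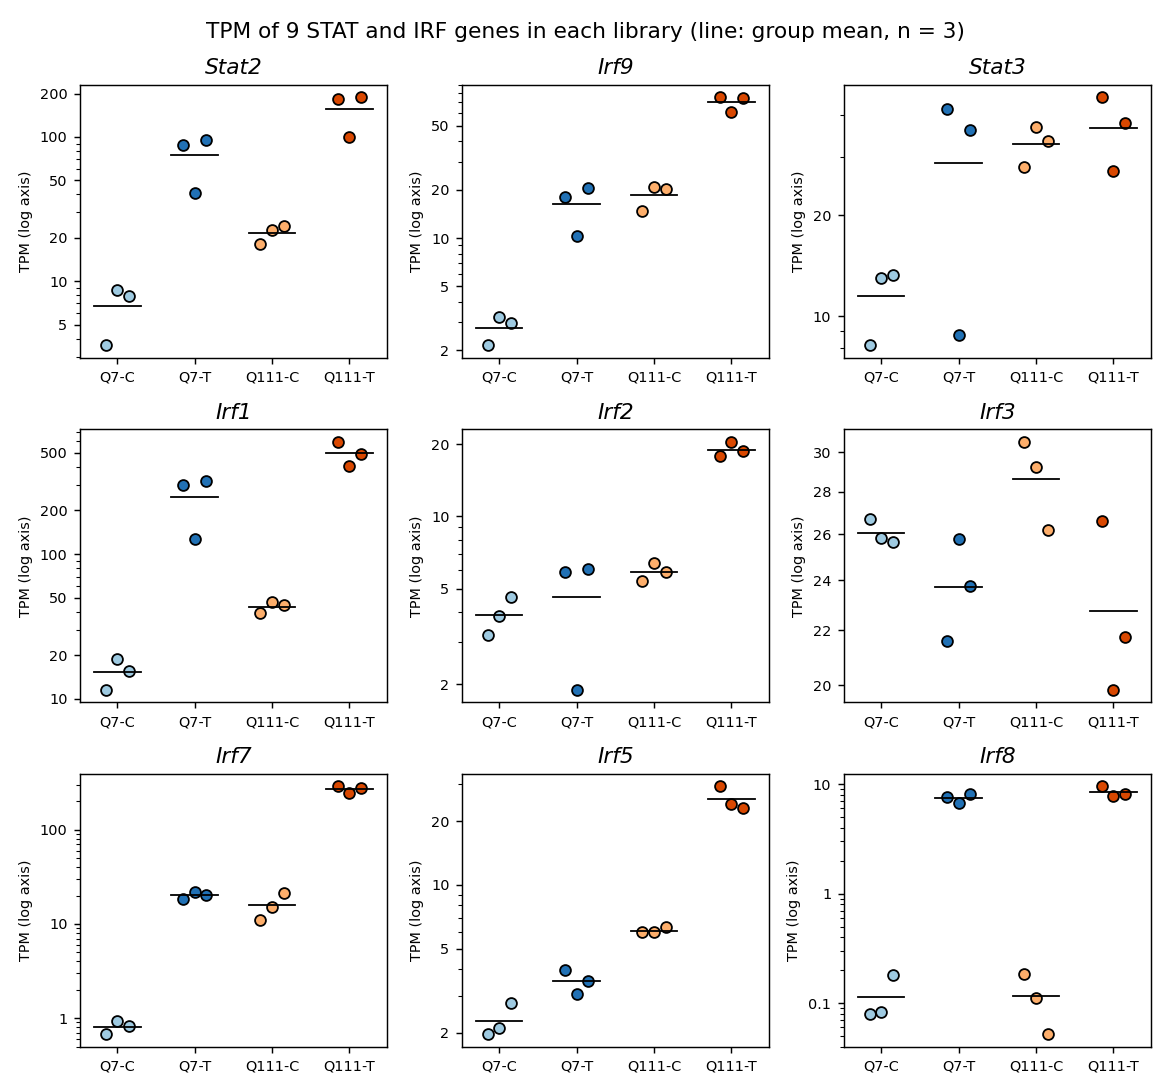
TPM of each of the 9 genes (log axis, scaled separately per gene) in the 4 groups; each point is a library and each line the mean of 3. Irf3 stays between 19.8 and 30.5 TPM, whereas Irf7 spans 0.672 to 289 TPM, and Q7-T replicate 2 (the middle point of its group) is the lowest Q7-T library for Stat3, at 8.79 TPM.

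Differences between groups were tested on the estimated counts, scaled by TMM, with edgeR. Genes with an adjusted p (Benjamini-Hochberg over all genes) under 0.05 and a change of at least 2-fold are called DEGs. Log2 fold changes are given ± SE. A two-sided exact permutation test of TPM in 3 libraries against 3 cannot go below p = 0.1, a value reached wherever the groups did not overlap. The TPM scale sets the lines further apart than TMM does. The median log2 difference of all genes was 0.27 in Q111-C vs. Q7-C and 0.34 in Q111-T vs. Q7-T on log2(TPM + 0.5), against -0.02 and -0.03 after TMM scaling. With limma on log2(TPM + 0.5) the DEGs of all genes split into 1489 higher and 767 lower in the former and 2940 and 777 in the latter, compared with 1229 and 1227, and 2145 and 1814, in the edgeR test.

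Before treatment, most of the family was already higher in STHdhQ111 cells. In Q111-C vs. Q7-C, 6 of 9 members were upregulated DEGs (7.62% of all genes were) and 0 were downregulated (7.61% of all genes). These were Irf7, Irf9, Stat2, Stat3, Irf1 and Irf5. The TPM of 7 members lay above Q7-C without overlap, as it did for 38.8% of all genes. The median log2 fold change of the 9 was 1.19.

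After treatment the set that separated the lines was different in part. In Q111-T vs. Q7-T, 4 of 9 were upregulated DEGs (13.3% of all genes), namely Irf7, Irf5, Irf2 and Irf9, and 0 were downregulated (11.2% of all genes). By the adjusted p alone the number was 6 (19.8% of all genes), with Stat2 and Irf1 at less than 2-fold. Without overlap in TPM were 6 members, against 33.9% of all genes. The median log2 fold change was 0.70.

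**Figure D2:**
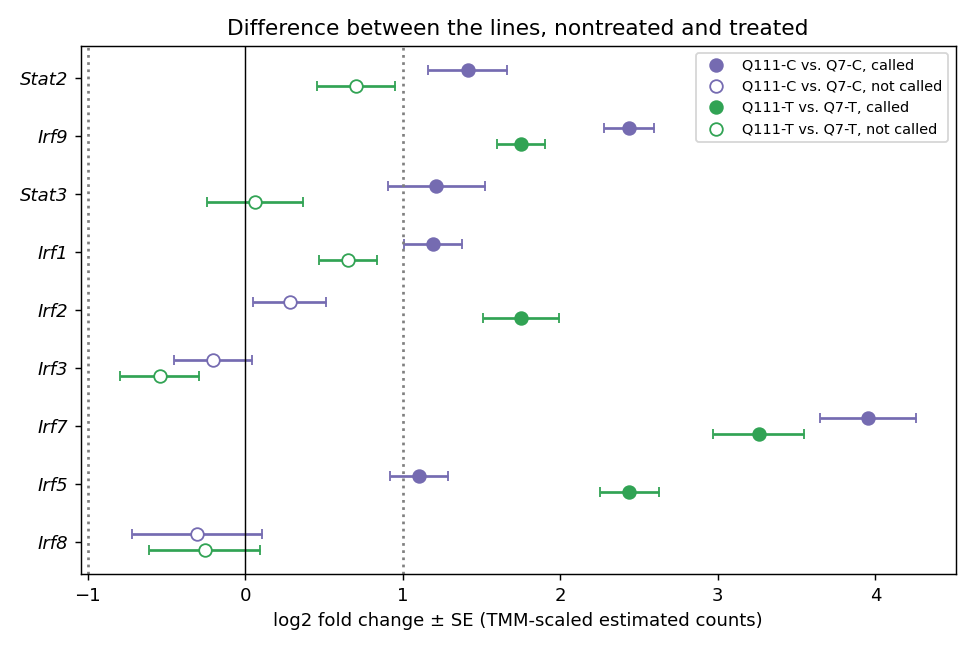
Log2 fold change ± SE of STHdhQ111 over STHdhQ7 cells, nontreated (purple) and treated (green); filled points are DEGs and dotted lines mark 2-fold. Irf7 is farthest to the right in both, at 3.95 and 3.26, and Irf2 is a DEG in the treated comparison and not in the nontreated one.

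Treatment raised most members in both lines. In Q7-T vs. Q7-C, 6 of 9 were upregulated DEGs (2.93% of all genes), namely Irf8, Irf7, Irf1, Stat2, Irf9 and Stat3. The adjusted p alone gave 7 (3.61% of all genes) by adding Irf5. In Q111-T vs. Q111-C, 7 of 9 were upregulated DEGs (8.28% of all genes), with Irf5 and Irf2 in place of Stat3. In each line 0 members were downregulated, against 1.11% and 2.96% of all genes. Separation in TPM was seen for 6 members in STHdhQ7 cells (5.55% of all genes) and for 7 in STHdhQ111 cells (19.8% of all genes). The median log2 fold changes were 2.70 and 2.17. These counts and medians include Irf8, which passed the filter only through the treated libraries. Without Q7-T replicate 2 the numbers of member DEGs stayed at 6 between nontreated and 4 between treated lines. They stayed at 6 and 7 for the responses of STHdhQ7 and STHdhQ111 cells. Of all 16127 genes, 1380, 2005, 482 and 1449 were upregulated in these comparisons without it. For the difference between the responses the number went from 2 to 3, adding Stat3 with a lower response in STHdhQ111 cells. Of all genes, 725 were then higher and 274 lower by that test.

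**Figure D3:**
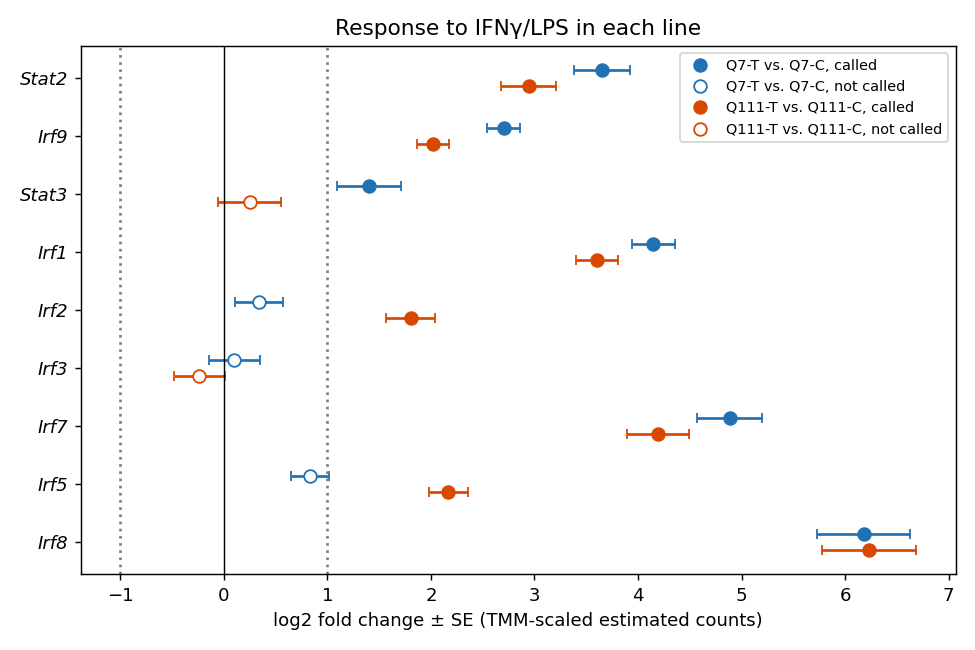
Log2 fold change ± SE of treated over nontreated cells in STHdhQ7 (blue) and STHdhQ111 cells (orange); filled points are DEGs and dotted lines mark 2-fold. Irf8, which passed the filter only through the treated libraries, has the highest response in both lines (6.18 and 6.23). The points of Stat3, Irf2 and Irf5 lie farthest apart between the lines.

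The subunits of ISGF3 were considered first. Stat2 (chr10:128270559-128292849, plus strand) provides the transactivation domain of the complex. Its TPM in the Q7-C libraries was 3.58, 8.64 and 7.93, compared with 18.0, 22.6 and 24.0 in Q111-C. It was 88.7, 40.7 and 95.0 in Q7-T and 183, 99.6 and 188 in Q111-T. The 4 groups did not overlap, in the order Q7-C, Q111-C, Q7-T and Q111-T, although Q7-T and Q111-T came close. The fold change was 1.41 ± 0.25 in Q111-C vs. Q7-C (adjusted p = 0.00153) and 0.70 ± 0.25 in Q111-T vs. Q7-T (adjusted p = 0.0411). Without Q7-T replicate 2 the latter was 0.57 ± 0.26 (adjusted p = 0.108). Its adjusted p was under 0.05 in 15 of 24 alternative fits and reached 0.122 over them. The response was 3.65 ± 0.27 in STHdhQ7 cells (adjusted p = 4.92e-06) and 2.94 ± 0.26 in STHdhQ111 cells (adjusted p = 1.27e-05), and the difference between the responses, -0.71 ± 0.35, was not significant (adjusted p = 0.289).

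Irf9 (chr14:55603571-55610030, plus strand) is the DNA-binding subunit of ISGF3. Its TPM was 2.14, 3.21 and 2.95 in Q7-C and 14.7, 20.7 and 20.4 in Q111-C. Treated libraries held 18.0, 10.2 and 20.4 TPM in Q7-T and 75.3, 61.5 and 74.7 TPM in Q111-T. The nontreated STHdhQ111 libraries thus overlapped the treated STHdhQ7 libraries, with every Q7-C library below both and every Q111-T library above both. Irf9 was higher in Q111-C vs. Q7-C by 2.43 ± 0.16 on the log2 scale (adjusted p = 9.74e-07) and in Q111-T vs. Q7-T by 1.75 ± 0.15 (adjusted p = 7.69e-06). Treatment raised it by 2.70 ± 0.16 in STHdhQ7 (adjusted p = 7.04e-07) and 2.02 ± 0.15 in STHdhQ111 cells (adjusted p = 3.66e-06). The difference of the responses was -0.68 ± 0.21 (adjusted p = 0.0882), and without Q7-T replicate 2 it was -0.76 ± 0.20 (adjusted p = 0.0414, under 2-fold). Irf9 overlaps Rnf31 on the same strand, so reads could be divided between them by the assembly, and Rnf31 averaged 4.16, 8.63, 8.77 and 13.3 TPM in Q7-C, Q7-T, Q111-C and Q111-T.

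Stat3 (chr11:100885098-100939540, minus strand) differed from the ISGF3 subunits. Its TPM was 8.17, 13.0 and 13.3 in Q7-C and 27.9, 36.8 and 33.5 in Q111-C. After treatment it was 41.6, 8.79 and 36.0 in Q7-T and 45.1, 27.1 and 37.7 in Q111-T. Only Q7-C and Q7-T replicate 2 were low, and Q7-T, Q111-C and Q111-T overlapped. Nontreated STHdhQ111 cells had the higher level, by 1.21 ± 0.31 (adjusted p = 0.0142), a call lost without Q7-C replicate 1 (1.14 ± 0.36, adjusted p = 0.0510), whereas Q111-T vs. Q7-T gave 0.06 ± 0.30 (adjusted p = 0.883). Treatment raised Stat3 in STHdhQ7 cells by 1.40 ± 0.31 (adjusted p = 0.0211), and in STHdhQ111 cells the value was 0.25 ± 0.30 (adjusted p = 0.670). The call in STHdhQ7 cells held in 14 of 24 alternatives (adjusted p between 3.95e-05 and 0.378). It was lost without any 1 of the Q7-C libraries and without Q7-T replicate 1 or 3, and the TPM of Q7-C and Q7-T overlapped (two-sided exact permutation p = 0.3). The difference of the responses was -1.15 ± 0.43 and not significant (adjusted p = 0.162).

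The Stat3 result depended on Q7-T replicate 2. Its Stat3 level was 0.226 of the mean of the other Q7-T libraries, compared with a median of 0.678 over all genes. Without it the response in STHdhQ7 cells was 1.74 ± 0.16 (adjusted p = 3.95e-05), Q111-T vs. Q7-T became -0.27 ± 0.16 (adjusted p = 0.216), and the difference of the responses became -1.50 ± 0.22 and passed the test (adjusted p = 0.00210). The same ratio was 0.317 for Irf2, 0.407 for Irf1, 0.443 for Stat2 and 0.533 for Irf9. It was 0.815 for Irf5, 0.846 for Irf8, 1.13 for Irf7 and 1.14 for Irf3. In this library the 9 genes therefore did not move by a common factor.

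Irf1 and its competitor Irf2 followed different courses. The TPM of Irf1 (chr11:53770014-53777323, plus strand) was 11.5, 19.0 and 15.6 in Q7-C and 39.0, 46.4 and 44.5 in Q111-C. It rose to 301, 126 and 321 in Q7-T and to 595, 403 and 489 in Q111-T. No 2 groups overlapped. The line difference was 1.19 ± 0.19 before treatment (adjusted p = 6.48e-04) and 0.65 ± 0.18 after it (adjusted p = 0.0158, under 2-fold). The adjusted p of the latter was under 0.05 in 22 of 24 alternative fits and reached 0.074 over them. The responses were 4.15 ± 0.21 in STHdhQ7 (adjusted p = 2.25e-07) and 3.61 ± 0.20 in STHdhQ111 cells (adjusted p = 4.06e-07). They differed by -0.54 ± 0.26 (adjusted p = 0.281), and without Q7-T replicate 2 by -0.72 ± 0.20 (adjusted p = 0.0476, under 2-fold). The opposite strand holds Gm17334, which averaged 0.502, 8.93, 2.03 and 16.1 TPM in Q7-C, Q7-T, Q111-C and Q111-T.

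Irf2 (chr8:46739732-46847458, plus strand) rose in STHdhQ111 cells after treatment. Its TPM went from 3.22, 3.85 and 4.61 in Q7-C to 5.89, 1.89 and 6.04 in Q7-T. The Q111-C libraries held 5.40, 6.41 and 5.84 TPM. The Q111-T libraries held 17.8, 20.5 and 18.7 TPM. Every Q111-T library was above every other library, while Q7-T overlapped both nontreated groups. The overlap with Q7-C came through Q7-T replicate 2, the lowest of all 12 libraries. The response was 1.80 ± 0.24 in STHdhQ111 cells (adjusted p = 2.54e-04) and 0.34 ± 0.23 in STHdhQ7 cells (adjusted p = 0.580). The responses differed by 1.47 ± 0.33, which passed the test (adjusted p = 0.0238). This call held in 14 of 23 alternatives, with adjusted p between 5.76e-04 and 0.136 over them, and it was lost without Q7-C replicate 3, Q111-T replicate 2 or any 1 of the Q111-C libraries. Without Q7-T replicate 2 the response of STHdhQ7 cells was 0.59 ± 0.15 (adjusted p = 0.0466, under 2-fold) and the difference 1.21 ± 0.21 (adjusted p = 0.00536). The lines differed by 1.75 ± 0.24 after treatment (adjusted p = 1.87e-04) and by 0.28 ± 0.23 before it (adjusted p = 0.452).

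Irf3 and Irf7 act on the same interferon genes, and of the pair Irf7 alone passed the tests. Irf3 (chr7:44997648-45002848, plus strand) was at 26.7, 25.8 and 25.6 TPM in Q7-C and at 21.6, 25.8 and 23.8 TPM in Q7-T. In STHdhQ111 cells it was at 30.5, 29.2 and 26.2 TPM before and at 26.6, 19.8 and 21.8 TPM after treatment. Neighbouring groups overlapped throughout. Its log2 fold changes in the 4 pairwise comparisons lay between -0.54 ± 0.25 (Q111-T vs. Q7-T, adjusted p = 0.106) and 0.10 ± 0.25 (Q7-T vs. Q7-C, adjusted p = 0.905). Without Q7-T replicate 2 the former was -0.18 ± 0.18 (adjusted p = 0.472) and the latter -0.25 ± 0.18 (adjusted p = 0.593). The Q111-C vs. Q7-C value, -0.21 ± 0.25, was positive in the limma fits on log2 TPM without quantile normalization, and the Q7-T vs. Q7-C value was negative in all limma fits and without Q7-C replicate 3.

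Irf7 (chr7:141262706-141266481, minus strand) had the largest line difference of the 9 in both states. Its TPM was 0.672, 0.923 and 0.818 in Q7-C and 11.1, 15.2 and 21.2 in Q111-C. Treated libraries held 18.3, 21.9 and 20.4 TPM in Q7-T and 289, 245 and 276 TPM in Q111-T. Nontreated STHdhQ111 cells overlapped treated STHdhQ7 cells, as for Irf9. The fold change was 3.95 ± 0.30 in Q111-C vs. Q7-C (15.5-fold, adjusted p = 3.62e-06) and 3.26 ± 0.29 in Q111-T vs. Q7-T (9.57-fold, adjusted p = 8.64e-06). The response was 4.88 ± 0.32 in STHdhQ7 (29.5-fold, adjusted p = 1.47e-06) and 4.19 ± 0.30 in STHdhQ111 cells (18.3-fold, adjusted p = 2.46e-06). The difference of the responses was -0.69 ± 0.38 (adjusted p = 0.345). It was positive with limma on log2(TPM + 0.5), on log2(TPM + 1) and on quantile-normalized values, negative in the other alternatives, and significant in 0 of 23 (lowest adjusted p = 0.176).

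Irf5 (chr6:29526625-29541871, plus strand) had a response that differed between the lines in every fit tried. Its TPM went from 1.96, 2.10 and 2.76 in Q7-C to 3.98, 3.05 and 3.50 in Q7-T. Q111-C libraries held 5.98, 5.97 and 6.33 TPM. It reached 29.3, 24.1 and 23.2 TPM in Q111-T. The 4 groups did not overlap, and both STHdhQ111 groups were above both STHdhQ7 groups. The response was 2.17 ± 0.19 in STHdhQ111 cells (adjusted p = 9.17e-06) and 0.83 ± 0.18 in STHdhQ7 cells (adjusted p = 0.0199, under 2-fold). They differed by 1.34 ± 0.26 (adjusted p = 0.0109), a call that held in 23 of 23 alternatives. Irf2 and Irf5 were the 2 of 9 members that passed this test of the difference with a higher response in STHdhQ111 cells, as 3.52% of all genes did, and 0 members had a lower response there (1.2% of all genes). Without Q7-T replicate 2 Stat3 was such a gene, as given above. The line difference of Irf5 was 1.10 ± 0.18 before (adjusted p = 9.76e-04) and 2.44 ± 0.19 after treatment (adjusted p = 3.35e-06).

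Irf8 (chr8:120736358-120756694, plus strand) had the largest response of the 9, and its line differences did not pass the test. Its TPM was 0.0791, 0.0833 and 0.180 in Q7-C and 0.184, 0.112 and 0.0517 in Q111-C. After treatment it was 7.66, 6.70 and 8.19 in Q7-T and 9.53, 7.74 and 8.17 in Q111-T. The nontreated values rest on 24, 22 and 58 estimated counts in Q7-C and on 42, 30 and 14 in Q111-C, so that their fold changes are imprecise. Treatment raised Irf8 by 6.18 ± 0.45 in STHdhQ7 (72.6-fold, adjusted p = 4.26e-06) and by 6.23 ± 0.45 in STHdhQ111 cells (75.0-fold, adjusted p = 2.66e-06). On log2(TPM + 1) these values were 2.93 and 3.08, as the pseudocount outweighs the nontreated level. The line values were -0.30 ± 0.41 before (adjusted p = 0.666) and -0.26 ± 0.35 after treatment (adjusted p = 0.589), and their sign changed between alternatives. Irf8 overlaps Gm20388 on the same strand, and no row of that name was used here.

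Because Irf8 and Irf5 are prominent in myeloid cells, macrophage or microglia markers were read beside them. The marker sum was 18.0 to 20.8 TPM before and 12.1 to 18.7 TPM after treatment in STHdhQ7 cells, and 32.1 to 37.0 and 46.1 to 62.6 TPM in STHdhQ111 cells. Cd68, a lysosomal protein found in many cell types, averaged 7.09 and 11.7 TPM in the former (1.01 ± 0.37, adjusted p = 0.187) and 15.2 and 48.8 TPM in the latter, in which it rose (1.81 ± 0.37, adjusted p = 0.00530). It was also higher in treated STHdhQ111 than treated STHdhQ7 cells (1.55 ± 0.37, adjusted p = 0.00688). Tmem119, a microglial membrane protein, fell with treatment in both lines, from a mean of 12.3 to 3.14 TPM in STHdhQ7 (-1.78 ± 0.23, adjusted p = 4.29e-04) and from 18.7 to 5.13 TPM in STHdhQ111 cells (-1.77 ± 0.22, adjusted p = 1.86e-04). The part of these markers in the Irf5 and Irf8 values was not tested. Spi1, the myeloid partner of Irf8, reached at most 0.0600 TPM in any library, Ptprc at most 0.00642 and Itgam at most 0.0762. Csf1r reached at most 0.479 TPM and had its highest mean in Q111-T (0.361 TPM). In bulk RNA a change in the share of cells that express a gene and a change in the RNA per cell cannot be told apart.

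Ratios within a library are free of library scaling and were computed for 5 pairs of members, chosen after their values were seen. The ratio of Irf1 to Irf2 rose from 3.97 ± 0.845 to 57.0 ± 8.56 in STHdhQ7 cells and from 7.36 ± 0.221 to 26.4 ± 6.88 in STHdhQ111 cells (SD, n = 3). STHdhQ111 libraries were thus above STHdhQ7 libraries before treatment and below them after it, without overlap in either case (two-sided exact permutation p = 0.1 for each, the smallest possible). For Q7-T replicate 2 the ratio was 66.8, against 51.0 and 53.2 in the other Q7-T libraries.

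The ratio of Irf7 to Irf3 went from 0.0309 ± 0.00538 to 0.852 ± 0.00549 in STHdhQ7 cells and from 0.564 ± 0.227 to 11.97 ± 0.971 in STHdhQ111 cells. The 3 Q7-T libraries were nearly identical, at 0.848, 0.850 and 0.858. Within ISGF3, the ratio of Stat2 to Irf9 went from 2.35 ± 0.589 to 4.52 ± 0.488 in STHdhQ7 cells and from 1.16 ± 0.0687 to 2.19 ± 0.496 in STHdhQ111 cells. It was lower in STHdhQ111 than in STHdhQ7 libraries and higher in treated than in nontreated ones, without overlap in any of the 4 pairwise comparisons (exact permutation p = 0.1 for each). The ratio of Irf7 to Irf9 did not overlap in any of the 4 either, with means of 0.293, 1.39, 0.843 and 3.84 in Q7-C, Q7-T, Q111-C and Q111-T. The ratio of Irf1 to Irf8 overlapped between Q7-C and Q111-C.

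**Figure D4:**
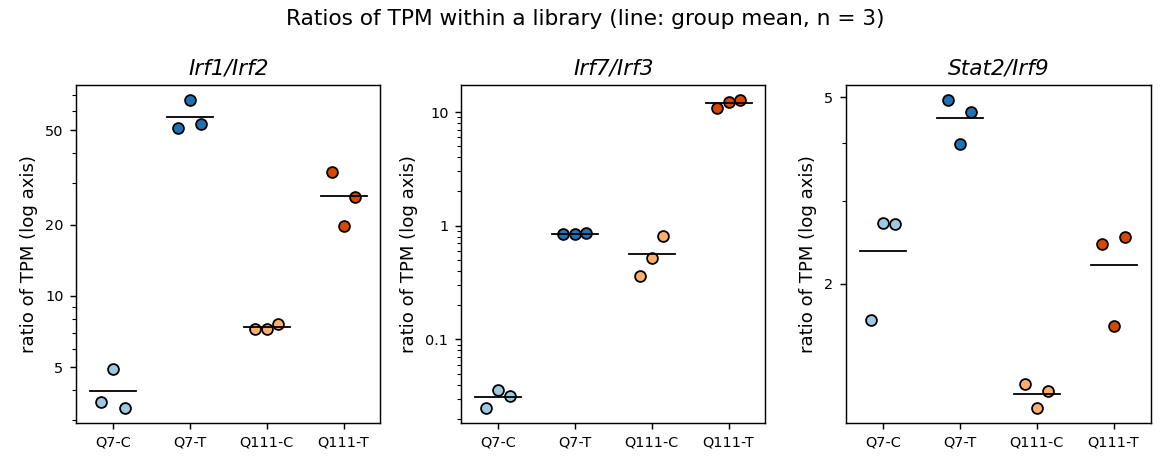
Ratio of the TPM of Irf1 to Irf2, Irf7 to Irf3 and Stat2 to Irf9 within each library (log axis), with points for libraries and lines for the mean of 3. For Irf1 to Irf2, the Q111-C mean (7.36) exceeds that of Q7-C (3.97), while the Q111-T mean (26.4) is below that of Q7-T (57.0).

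Genes known as targets of these factors were taken as lists. Of 12 ISGF3 target genes, 11 were upregulated in nontreated and 12 in treated STHdhQ111 over STHdhQ7 cells (7.62% and 13.3% of all genes), with median log2 fold changes of 3.33 and 4.79. Treatment upregulated 8 of 12 in STHdhQ7 and 12 of 12 in STHdhQ111 cells (2.93% and 8.28% of all genes, medians 3.44 and 4.76), and 4 had a higher response in STHdhQ111 cells by the test of the difference (3.52% of all genes). Mx2, an antiviral GTPase, was one of these (2.53 ± 0.37, adjusted p = 0.00230). Isg15, a ubiquitin-like protein, rose by 4.78 ± 0.22 in STHdhQ7 and by 3.98 ± 0.21 in STHdhQ111 cells (adjusted p of the difference 0.117). The median of all genes was between -0.03 and 0.0033 in these comparisons.

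All 12 Irf1 target genes were upregulated by treatment in both lines (2.93% and 8.28% of all genes, medians 6.56 and 5.67). Ciita, Casp1 and Gbp5 averaged at most 0.423 TPM in either nontreated group, below the filter of 0.5 TPM. As for Irf8, their rise has to be read with that. Between the lines the list was mixed, with 5 of 12 higher in Q111-C vs. Q7-C (7.62% of all genes), and 4 higher and 2 lower in Q111-T vs. Q7-T (13.3% and 11.2%). Tap1, which carries peptides for antigen presentation, rose by 5.41 ± 0.24 in STHdhQ7 and 4.79 ± 0.24 in STHdhQ111 cells. Psmb8, an immunoproteasome subunit, was the 1 gene of the list with a lower response in STHdhQ111 cells (-2.74 ± 0.56, adjusted p = 0.0145), and the chemokine Cxcl9 the 1 with a higher response (2.22 ± 0.46, adjusted p = 0.0152), against 1.2% and 3.52% of all genes. The median of the 12 differences was -0.63.

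Of 10 Stat3 target genes, 5 were upregulated in Q7-T vs. Q7-C and 8 in Q111-T vs. Q111-C (2.93% and 8.28% of all genes, medians 2.17 and 2.09). Between nontreated lines 1 of 10 was higher in STHdhQ111 cells (Bcl3, 2.11 ± 0.27, adjusted p = 1.45e-04; 7.62% of all genes) and 2 were lower (7.61% of all genes), namely Myc (-1.05 ± 0.26, adjusted p = 0.0124) and Pim1 (-1.75 ± 0.36, adjusted p = 0.00406). Between treated lines 3 were higher (Fos, Junb and Il6) and 1 was lower (Cebpd), against 13.3% and 11.2% of all genes, and the medians were 0.23 and 0.13. The difference of the responses was called for 5 genes, 3 higher and 2 lower in STHdhQ111 cells (3.52% and 1.2% of all genes). Bcl3, an atypical member of the IκB family, and Cebpd, a C/EBP factor, were the lower ones (-1.98 ± 0.36, adjusted p = 0.00898, and -1.90 ± 0.45, adjusted p = 0.0298). The immediate early genes Fos (3.91 ± 0.48, adjusted p = 9.36e-04) and Junb (2.00 ± 0.36, adjusted p = 0.00781) were among the higher ones, with Il6 as the third. Socs3, the feedback inhibitor of Stat3 signalling, rose by 2.45 ± 0.20 in STHdhQ7 and by 1.67 ± 0.20 in STHdhQ111 cells (adjusted p of the difference 0.134). Many genes of these lists also answer to NF-kB and other factors.

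**Figure D5:**
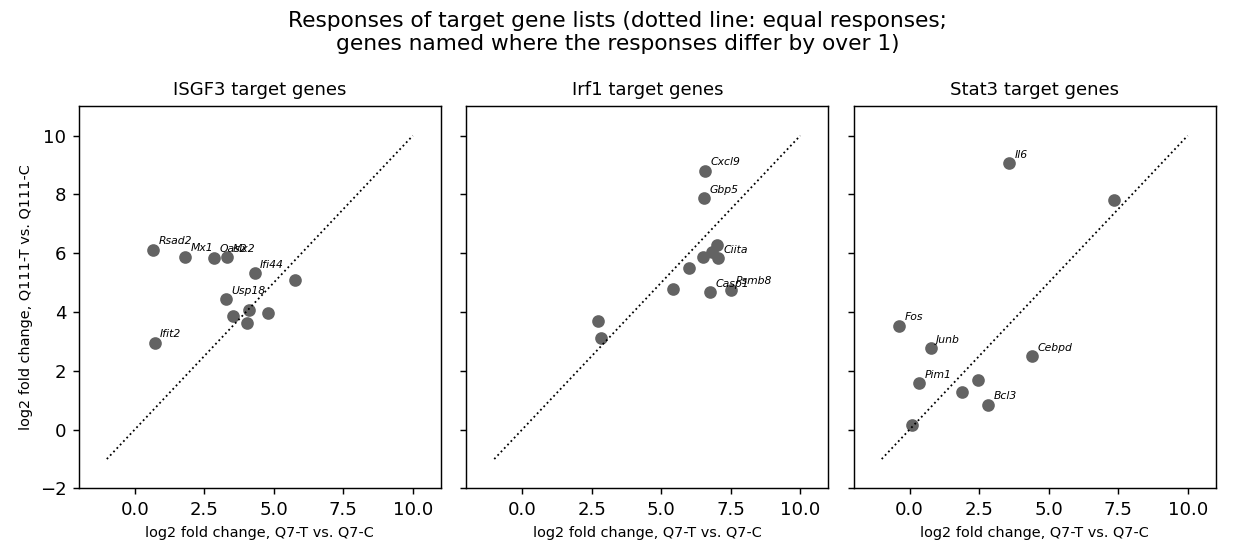
Log2 fold change on treatment in STHdhQ7 (x axis) and STHdhQ111 cells (y axis) of the genes in each target list; the dotted line marks equal responses and genes are named where they differ by over 1. All 12 Irf1 target genes lie above 2-fold on both axes, while Fos, Junb and Il6 lie above the line and Bcl3 and Cebpd below it.

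Components upstream of the factors were read in the same way. Of 8 receptors, 2 were upregulated DEGs in Q111-C vs. Q7-C (7.62% of all genes), namely Tlr4 (1.49 ± 0.31, adjusted p = 0.00454), the LPS receptor, and Ifngr2 (1.01 ± 0.14, adjusted p = 2.27e-04), a chain of the IFNγ receptor. Under 2-fold were Ifnar1 (0.68 ± 0.12, adjusted p = 0.00196) and Il10rb (0.65 ± 0.19, adjusted p = 0.0272), which were higher, and Ifngr1, the ligand-binding chain of the IFNγ receptor, which was lower (-0.49 ± 0.14, adjusted p = 0.0249). Between treated lines 3 receptors were upregulated DEGs (13.3% of all genes), namely Tlr4, Ifngr2 and Il10rb. Ifnar2, a chain of the type I interferon receptor, was the 1 receptor upregulated by treatment in each line (2.93% and 8.28% of all genes), by 1.01 ± 0.16 in STHdhQ7 (adjusted p = 0.00214) and 1.46 ± 0.16 in STHdhQ111 cells (adjusted p = 6.20e-05). Of the 12 kinases and adaptors tested, 2 were upregulated by treatment in STHdhQ7 and 3 in STHdhQ111 cells (2.93% and 8.28% of all genes). Jak3 and Ikbke were the 2 of the list upregulated in STHdhQ111 over STHdhQ7 cells in either state (7.62% and 13.3% of all genes). Ikbke, a kinase that phosphorylates Irf3 and Irf7, was higher in Q111-C vs. Q7-C by 2.69 ± 0.18 (adjusted p = 1.46e-06) and was the 1 gene of the list whose response differed (1.03 ± 0.24, adjusted p = 0.0314; 3.52% of all genes had a higher response). Of 8 tested IRF partners and co-factors, Batf2 and Nmi rose in both lines (2.93% and 8.28% of all genes). For Batf2 the values were 6.59 ± 0.56 (adjusted p = 1.59e-05) and 7.78 ± 0.59 (adjusted p = 3.64e-06), and for Nmi 3.26 ± 0.32 (adjusted p = 5.39e-05) and 2.15 ± 0.31 (adjusted p = 4.36e-04). Batf2 averaged 0.385 TPM in each nontreated group, below the filter of 0.5 TPM, and its rise has to be read with that. Between the lines, Nmi was higher in nontreated STHdhQ111 cells (1.02 ± 0.30, adjusted p = 0.0292) and Irf2bp1 lower in treated ones (-1.15 ± 0.17, adjusted p = 3.29e-04), each the 1 gene of the list called (7.62% of all genes were higher in the former and 11.2% lower in the latter).

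Among further STAT genes, Stat6, the factor of Il4 signalling, averaged 0.863 and 0.758 TPM in Q7-C and Q7-T and 73.5 and 55.9 TPM in Q111-C and Q111-T. The line difference was 6.06 ± 0.30 before treatment (adjusted p = 1.67e-07), larger than that of any of the 9 members, and the treatment values were 0.06 ± 0.25 and -0.31 ± 0.24 (adjusted p = 0.950 and 0.463). Stat5a was also higher in Q111-C vs. Q7-C (2.55 ± 0.41, adjusted p = 8.30e-04). It lies opposite Stat3 with an overlap. Stat5b gave 0.16 ± 0.15 (adjusted p = 0.522). Stat4 and Irf4 were below the filter.

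The genes whose log2(TPM + 0.5) ran most parallel to each member over the 12 libraries were recorded as a description, since the libraries share groups and depth. Irf1 was most like H2-Q4 (Pearson r = 0.999), Gbp3 and Gbp7, and Irf7 was most like Ifit3 (r = 0.996), Isg15 and Slpi. Irf8 ran with Gm12185 (r = 0.996), Gm12250 and Serpina3f. For Stat2 these were Parp9 (r = 0.993), Erap1 and Irf1, and for Irf9 Kyat3 (r = 0.994), Dcn and Dram1. Irf5 was closest to Susd2 (r = 0.994), Vnn1 and Bdkrb1, and Irf2 to Rasd1 (r = 0.985), N4bp1 and Slc25a22. Stat3 (Slc12a7, r = 0.963, then Slc16a9 and Rhobtb1) and Irf3 (Dtx2, r = 0.913, then Map3k10 and Cyhr1) had the least close neighbours. Among the members themselves, Stat2 and Irf1 gave r = 0.989, Irf7 and Irf9 r = 0.980, and Irf2 and Irf5 r = 0.931, whereas Irf3 was negative with all 8 others (-0.20 to -0.68).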

How the data were processed

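According to the study's methods, the authors trimmed paired-end reads of stranded poly(A) libraries with Cutadapt, mapped them with HISAT2 to GRCm38 (Ensembl release 101) and assembled transcripts with StringTie. They deposited TPM values and estimated counts per gene and library. The estimated counts were not normalized and were rounded to whole numbers here. Multiples of 4 are in excess among low counts, so counts divided by 4 were tried as an alternative, and depth may be overstated.

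Genes with at least 0.5 TPM in 3 libraries were tested with edgeR 4.0.16 (quasi-likelihood F test, TMM, all 12 libraries in 1 fit, R 4.3.3) with Benjamini-Hochberg adjustment over 16127 genes. SEs were derived from the F statistic. Members were described in every library, with their 3 most correlated genes. DESeq2 1.42.0, limma 3.58.1, other scalings, filters and leaving out each library were alternatives. Promoter windows were read from RefSeq (GRCm38.p6). Counting strand was not stated in the sources used here. The members and lists were chosen with earlier results of these data known, and some genes of the planned lists are not reported here. No library appeared to be deposited more than once (smallest chi-square per degree of freedom between replicates 5.05).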

Additional observations from a re-analysis of the deposited data

Results flagged for a closer look

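The response of Irf2 to treatment differed between the lines by the test of the interaction. It was 1.80 ± 0.24 in STHdhQ111 and 0.34 ± 0.23 in STHdhQ7 cells on the log2 scale, a difference of 1.47 ± 0.33 (edgeR, adjusted p = 0.0238). All 3 Q111-T libraries were above all Q111-C libraries, whereas Q7-T and Q7-C overlapped through Q7-T replicate 2 (1.89 TPM). The other Q7-T libraries, at 5.89 and 6.04 TPM, were above every Q7-C library (highest 4.61 TPM). Without Q7-T replicate 2 the response of STHdhQ7 cells was 0.59 ± 0.15 (adjusted p = 0.0466) and the difference 1.21 ± 0.21 (adjusted p = 0.00536). The call of the difference was lost in 9 of 23 alternatives (adjusted p up to 0.136), namely the replicate block, limma on log2(TPM + 0.5), log2(TPM + 1) and log2(TPM + 0.1), and leaving out Q7-C replicate 3, Q111-T replicate 2 or any 1 of the Q111-C libraries. Irf5 met the same criterion, with responses of 2.17 ± 0.19 and 0.83 ± 0.18 and a difference of 1.34 ± 0.26 (adjusted p = 0.0109).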

How the results depend on the processing

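The number of members called stayed at 5 to 6 in Q111-C vs. Q7-C, 4 to 6 in Q111-T vs. Q7-T, 5 to 6 in Q7-T vs. Q7-C and 7 in Q111-T vs. Q111-C over 24 alternatives each. For the interaction it fell from 2 to 1 with limma on log2(TPM + 0.5), log2(TPM + 1) and log2(TPM + 0.1) and with the replicate block, and leaving out single libraries gave 1 to 3. The number of all genes called with a higher response in STHdhQ111 cells also moved. It was 567 in the main test, 373 without Q111-C replicate 2 and 905 with DESeq2. No pairing by replicate number was seen (correlations of same-numbered deviations -0.58 to 0.45), which with 3 libraries per group does not exclude it. With the replicate block, Stat3 in Q7-T vs. Q7-C (1.34, adjusted p = 0.0516) and Irf2 in the interaction (1.48, adjusted p = 0.0538) lost their call, and no other member's call changed. Irf5 in Q7-T vs. Q7-C, under 2-fold, no longer passed by the adjusted p alone (0.83, adjusted p = 0.0530), which held in 17 of 24 alternatives. The DEGs of all genes in Q7-T vs. Q7-C were 426 higher and 144 lower with the block. Stat3 in Q7-T vs. Q7-C was called in 14 of 24 alternatives (1.02 to 1.74). Its call in Q111-C vs. Q7-C was lost without Q7-C replicate 1 (adjusted p = 0.0510), and that of Irf5 with quantile-normalized limma (0.89). Depth limits Irf8 in nontreated cells most, where at most 58 estimated counts were assigned. The remaining sign changes concern values that were not significant, and their cause was not tested. Irf3 in Q111-C vs. Q7-C was 0.13 in each limma fit on log2(TPM + 0.5), log2(TPM + 1) and log2(TPM + 0.1). Irf3 in Q7-T vs. Q7-C was -0.14, -0.13 and -0.14 in these fits, -0.019 with quantile normalization, and -0.25 to 0.29 leaving out a library. Irf7 in the interaction was 0.11 and 0.50 with log2(TPM + 0.5) and log2(TPM + 1), and 0.20 with quantile normalization. Irf8 in Q111-C vs. Q7-C was 0.0027 and 0.0019 with log2(TPM + 0.5) and log2(TPM + 1), and Irf8 in Q111-T vs. Q7-T was 0.16, 0.15 and 0.17 in the limma fits. Irf8 in the interaction was -0.024 with upper-quartile scaling and -0.16 with quantile normalization. Leaving out a library gave -0.27 to 0.32 for Stat3 in Q111-T vs. Q7-T, -0.53 to 0.014 for Irf3 in the interaction, -0.77 to 0.11 for Irf8 in Q111-C vs. Q7-C and -0.35 to 0.53 for Irf8 in the interaction.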
